A study of Mus musculus with 7 samples.

Results

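The 9 genes described here were listed together as genes of photoreceptor outer segment structure: Prph2, Rom1, Prom1, Cdhr1, Abca4, Rp1, Rp1l1, Fam161a and Tulp1. They were taken by symbol from the deposited table of 54532 genes, each symbol occurred once, and all 9 were among the 17078 genes tested. Whole mouse retinas were profiled on day 28 of an infusion with angiotensin II (Ang II, a peptide hormone that raises blood pressure; 4 libraries) or with saline (3 libraries). The series describes ApoE-/- animals in both arms while the sample labels give the genotype of all 7 as WT. In each library 150 to 406 reads of Apoe were counted, out of 14655431 to 17563493 counts, and these reads do not settle the genotype. Dose, age, sex, strain and the number of animals behind a library are not stated in the labels, so the p-values measure the spread between libraries, which may be technical in part.

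The outer segment is the light-catching end of a rod or cone, a modified cilium filled with a stack of membrane discs. New discs form at its base as evaginations of the membrane and are then closed by a curved rim, while a microtubule axoneme runs along the stack and the connecting cilium joins it to the cell body. The proteins of rims, growing disc edges and axoneme are needed to build and align discs, and variants in many of their genes are known causes of inherited retinal degeneration.

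The proximal promoters of 4 members are shown to set the windows of Prph2 and Abca4, which hold the core motif known to be bound by the photoreceptor homeodomain factor CRX, beside those of Rom1 and Cdhr1, which do not hold it. Each line gives the 120 bases that end just before the RefSeq transcription start (build GRCm38.p6, which is mm10), 5′ to 3′ on the strand of the gene, with matches to the core TAATC on either strand in capitals, extended by 1 base where the longer form TAATCC was matched.
Prph2, chr17:46910358-46910477 (plus strand): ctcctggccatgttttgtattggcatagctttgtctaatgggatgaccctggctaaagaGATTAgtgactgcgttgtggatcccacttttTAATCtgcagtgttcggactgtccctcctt
Abca4, chr3:122044340-122044459 (plus strand): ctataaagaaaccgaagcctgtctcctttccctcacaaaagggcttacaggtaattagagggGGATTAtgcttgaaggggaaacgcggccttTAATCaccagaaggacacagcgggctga
Rom1, chr19:8929357-8929476 (minus strand): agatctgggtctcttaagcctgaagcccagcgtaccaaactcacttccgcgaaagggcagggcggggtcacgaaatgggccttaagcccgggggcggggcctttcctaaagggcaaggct
Cdhr1, chr14:37098348-37098467 (minus strand): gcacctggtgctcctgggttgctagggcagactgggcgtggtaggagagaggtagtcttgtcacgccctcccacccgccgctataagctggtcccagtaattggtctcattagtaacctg
Both matched promoters hold a pair of cores. In Prph2 they begin 61 and 30 bases before the start, and in Abca4 57 and 28 bases before it. The search covered both strands of the 250 bases before the start. The core TAATC, added after the windows had been read, lies within the longer form TAATCC. The third string was TGCTGA, a half-site of the rod factor NRL. RefSeq promoters were found for 7 of the 9 members in 9 windows. TAATC occurred for 3 of the 7 (Prph2, Abca4 and the second of 2 starts of Prom1), TAATCC for 1 (Abca4) and TGCTGA for 0. Of 32851 promoters of the same length, 19.8% hold TAATC, 6.25% TAATCC and 16.1% TGCTGA. A match is a string of letters and not a measured binding site.

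Depth ranged from 14655431 to 17563493 counts per library, and the members took 1.28% to 1.49% of them. Several libraries stood apart. Saline replicate 2 lay at the far end of the first principal component, which held 33.3% of the variance, and had the highest summed level of immediate early genes (700.1 CPM, the count per library scaled to a common size, against 212.4 to 261.1 with Ang II and 274.8 and 398.0 in the other saline libraries). It also had the lowest depth and the fewest genes detected, at 21260 against 24024 to 24846 in the other libraries. Marker genes of the pigment epithelium, the pigmented layer that touches the outer segment tips, summed to 1128 to 2005 CPM with Ang II, against 200.4, 233.1 and 1028 CPM with saline (replicates 1 to 3). Of these 14 markers 13 lay higher in Ang II, with a median log2 fold change of 1.53, and 0 were at 0 counts. The retina label itself was borne out by 15 rod genes, all tested and together at 65780 to 88050 CPM.

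Across all genes, edgeR's quasi-likelihood test called 0 of 17078 (0%) at an adjusted p under 0.05, and 0 of the 9 members. DESeq2 called 35 genes (0.2%), limma-voom with quality weights 142 (0.831%), and neither called a member. An unadjusted edgeR p under 0.05 was found for 789 genes (4.62%), of which 293 lay lower in Ang II (1.72%). Of the members, 8 of 9 lay lower in Ang II, against 51.1% of all genes tested, and 3 of 9 did so at an unadjusted p under 0.05 (Cdhr1, Abca4 and Rom1). Abundant genes in general leaned the same way: among the 558 tested genes at or above the mean of the least abundant member, 78.1% lay lower, 6.81% with an unadjusted p under 0.05. That floor was set by Fam161a, while the other 8 members ranked 6 to 106 by mean CPM. The 558 genes are thus not matched to those 8 in abundance, and genes at those ranks were not summarised apart. The median log2 fold change (Ang II over saline) was -0.17 over the members, -0.07 over those 558 genes and -0.0048 over all genes tested. A decrease of the members was thus not established, and whole-retina counts cannot tell fewer photoreceptors from less RNA per photoreceptor.

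**Figure D1:**
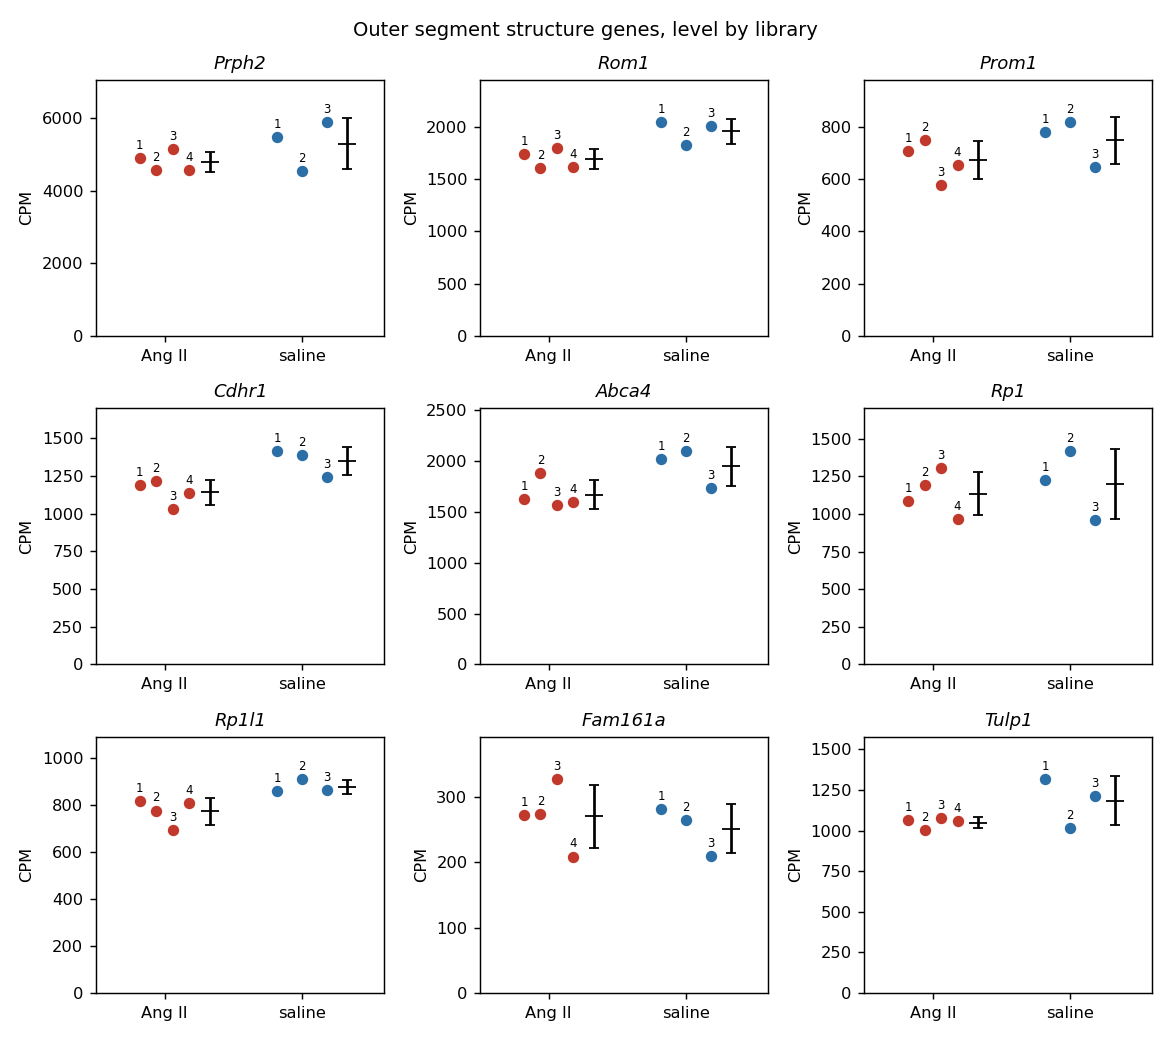
Level of each member in CPM (vertical axes, starting at 0) in 4 Ang II (red) and 3 saline (blue) libraries, numbered by replicate, with the mean and SD as black bars. The groups do not overlap for Rom1, Cdhr1 and Rp1l1, and they overlap for the other 6 genes.

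The disc rim is shaped by Prph2 and Rom1, a pair of related tetraspanins that assemble into common complexes. Prph2 (ENSMUSG00000023978, chromosome 17, 46910459 to 46924933, mm10, plus strand) was at 4894, 4564, 5142 and 4578 CPM with Ang II (replicates 1 to 4), against 5478, 4529 and 5879 CPM with saline (replicates 1 to 3). It ranked 6 of 17078 genes by mean CPM, and the groups overlapped because saline replicate 2 was the lowest of all 7 libraries. The 4 Ang II libraries averaged 4795 ± 277 CPM (SD) where the 3 saline libraries averaged 5296 ± 693 CPM (SD), which put the log2 fold change at -0.14 ± 0.10 (SE) with a 95% interval of -0.35 to 0.07 (edgeR adjusted p = 0.982). Without saline replicate 2 the log2 fold change was -0.25 (edgeR adjusted p = 0.926), and without saline replicate 3 it was -0.05.

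Rom1 (ENSMUSG00000071648, chromosome 19, 8927382 to 8929356, minus strand), the partner of Prph2, was at 1741, 1603, 1798 and 1618 CPM with Ang II, against 2041, 1821 and 2005 CPM with saline. All 4 Ang II libraries lay below the lowest saline library, as did those of Cdhr1 and Rp1l1 among the members. Such a gap in this direction was seen in 2.73% of all genes tested and in 6.99% of the 558 abundant ones. A gap in the other direction was seen in 3.18% of all genes and in 0 members. Ang II averaged 1690 ± 95.2 CPM (SD, 4 libraries) and saline 1955 ± 118 CPM (SD, 3 libraries), for a log2 fold change of -0.21 ± 0.09 (SE), 95% interval -0.39 to -0.03, with an unadjusted p of 0.0272 and an edgeR adjusted p of 0.982. The ratio of the per-length levels of Prph2 and Rom1 was steady in Ang II (1.43 to 1.45) and ranged from 1.26 in saline replicate 2 to 1.49 in saline replicate 3.

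At the growing disc edges act Prom1, a cholesterol-binding membrane protein of evaginations, and Cdhr1, a photoreceptor cadherin that tethers new discs at the base. Cdhr1 (ENSMUSG00000021803, chromosome 14, 37077857 to 37098347, minus strand) was at 1190, 1218, 1030 and 1134 CPM with Ang II, against 1416, 1386 and 1242 CPM with saline. Every Ang II library was below every saline library, the closest being Ang II replicate 2 and saline replicate 3. Mean levels of 1143 ± 83.0 CPM (SD, 4 Ang II libraries) and 1348 ± 93.0 CPM (SD, 3 saline libraries) gave the lowest log2 fold change of the 9 at -0.24 ± 0.09 (SE), 95% interval -0.43 to -0.04, or -15.2% (unadjusted p = 0.0191, edgeR adjusted p = 0.982).

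Prom1 (ENSMUSG00000029086, chromosome 5, 43993620 to 44102032, minus strand) was at 705.5, 750.3, 578.8 and 653.2 CPM with Ang II, against 780.9, 816.3 and 645.5 CPM with saline. Saline replicate 3 lay below 3 of the 4 Ang II libraries, so the groups overlapped. The log2 fold change was -0.15 ± 0.11 (SE), 95% interval -0.38 to 0.08 (edgeR adjusted p = 0.982), and it was -0.08 without Ang II replicate 3, the lowest library. Exons of Prom1 overlap those of an antisense gene, Gm16401, which had 41 to 97 counts per library against 9154 to 12607 for Prom1, and reads of the 2 strands cannot be told apart where they overlap.

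Abca4 (ENSMUSG00000028125, chromosome 3, 122044443 to 122180123, plus strand) encodes the rim transporter that clears retinal-lipid adducts from the disc membrane. It was at 1622, 1879, 1567 and 1597 CPM with Ang II, against 2012, 2096 and 1731 CPM with saline. Only Ang II replicate 2 exceeded a saline library, replicate 3. Means of 1666 ± 144 CPM (SD) over 4 Ang II libraries and 1946 ± 191 CPM (SD) over 3 saline libraries gave a log2 fold change of -0.22 ± 0.10 (SE), 95% interval -0.43 to -0.02 (unadjusted p = 0.0355, edgeR adjusted p = 0.982).

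The axoneme is bundled by Rp1 and its relative Rp1l1, which bind microtubules through doublecortin domains. Rp1l1 (ENSMUSG00000046049, chromosome 14, 63992506 to 64035025, plus strand) was at 814.8, 775.5, 690.7 and 806.6 CPM with Ang II, against 856.4, 907.9 and 861.5 CPM with saline. The groups did not overlap, and its log2 fold change was -0.18 ± 0.09 (SE), 95% interval -0.37 to 0.01 (unadjusted p = 0.0558, edgeR adjusted p = 0.982). Without Ang II replicate 3, its lowest library, this became -0.13.

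Rp1 (ENSMUSG00000025900, chromosome 1, 3999557 to 4409241, minus strand) had overlapping groups, unlike its relative. Whether the 2 genes differ in their change was not tested. Rp1 was at 1083, 1190, 1304 and 964.7 CPM with Ang II, against 1223, 1419 and 957.2 CPM with saline. Each group thus held both high and low libraries. The log2 fold change was -0.08 ± 0.13 (SE), 95% interval -0.36 to 0.20 (edgeR adjusted p = 0.983). It was 0.06 without saline replicate 2 and -0.21 without saline replicate 3.

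Fam161a (ENSMUSG00000049811, chromosome 11, 23007531 to 23030788, plus strand), whose product lines the inner wall of the connecting cilium's microtubules, was the least abundant member and the one whose estimate lay above 0. It was at 272.2, 274.0, 326.9 and 208.8 CPM with Ang II, against 281.1, 264.2 and 209.6 CPM with saline. Ang II replicate 3 was the highest and Ang II replicate 4 the lowest of all 7 libraries. The log2 fold change of 0.10 ± 0.14 (SE) had a 95% interval of -0.20 to 0.41 (edgeR adjusted p = 0.983), and it was 0.0066 without Ang II replicate 3 and -0.0056 without saline replicate 3.

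Tulp1 (ENSMUSG00000037446, chromosome 17, 28351515 to 28365222, minus strand), a tubby-family protein required to deliver proteins from the inner to the outer segment, was at 1062, 1001, 1077 and 1056 CPM with Ang II, against 1315, 1018 and 1214 CPM with saline. The 4 Ang II libraries lay close together (1049 ± 33.2 CPM, SD), and saline replicate 2 fell within their range. The log2 fold change was -0.17 ± 0.10 (SE), 95% interval -0.38 to 0.03 (edgeR adjusted p = 0.982). Without saline replicate 2 it was -0.27, and without saline replicate 1 it was -0.09.

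The members did not vary over libraries in a single way. Likeness was measured as the root mean square difference of log2 CPM profiles, each centred on its own mean over the 7 libraries, with the pairs grouped after their values were seen. Prph2, Rom1 and Tulp1 differed from one another by 0.0688 to 0.0736, and all 3 were high in saline replicates 1 and 3. Cdhr1, Abca4 and Prom1 differed from one another by 0.0656 to 0.0749, were high in saline replicates 1 and 2 and lowest in Ang II replicate 3. Rp1l1 was nearest to Cdhr1 (0.0738). Rp1 and Fam161a were nearest to each other among the members but at a larger distance (0.137), both being high in Ang II replicate 3 and low in Ang II replicate 4 and saline replicate 3.

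The unlike pair of relatives, Rp1 and Rp1l1, differed by 0.238, and Prph2 and Rp1 by 0.273. In Ang II replicate 3, for example, Rp1 was 0.18 above and Rp1l1 0.24 below its own mean on the log2 scale. The GC content of the longest principal transcript was 54.1% for Prph2, 57.1% for Rom1 and 60.5% for Tulp1. It was 50.8% for Cdhr1, 52.1% for Abca4, 45.3% for Prom1, 55.2% for Rp1l1, 45.7% for Rp1 and 50.6% for Fam161a. The part of base composition in these profiles was not tested.

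**Figure D2:**
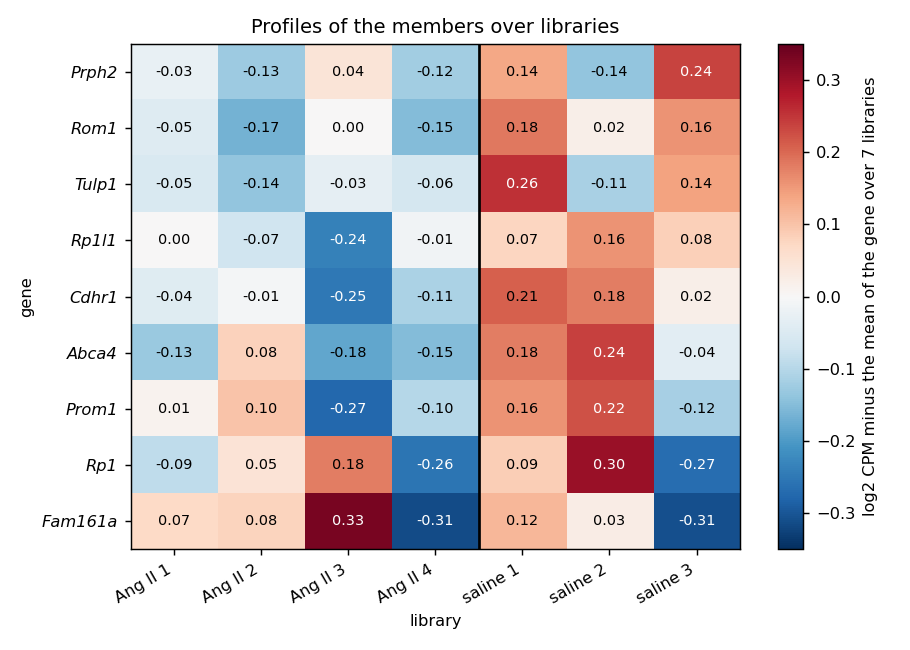
Deviation of each member (rows) from its own mean log2 CPM in each library (columns, with a line between Ang II and saline), printed in each cell and coloured from blue (lower) to red (higher). Prph2, Rom1 and Tulp1 are lower in saline replicate 2 than in saline replicates 1 and 3, and Rp1 and Fam161a are lowest in Ang II replicate 4 and saline replicate 3.

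Per length, as CPM per kilobase of the deposited gene length, the rim tetraspanins were far above the rest. Prph2 was at 1669 ± 173 and Rom1 at 1182 ± 112 CPM per kilobase (SD over the 7 libraries), which ranked 8 and 13 of the genes tested. Cdhr1 followed at 284.2 ± 31.2, then Tulp1 at 166.0 ± 17.2, Abca4 at 148.6 ± 17.6, Rp1l1 at 107.8 ± 9.27, Prom1 at 98.2 ± 11.7, Rp1 at 94.5 ± 14.0 and Fam161a at 59.7 ± 9.47 CPM per kilobase. Prph2 exceeded Rom1 in 7 of 7 libraries. The ranges of Tulp1 and Abca4 overlapped, as did those of Rp1l1, Prom1 and Rp1. Within libraries, Tulp1 exceeded Abca4 in 5 of 7, Rp1l1 exceeded Prom1 in 6 of 7 and Prom1 exceeded Rp1 in 5 of 7. Whether these neighbours differ was not tested. The order below Rom1 changed when the length of the longest principal coding transcript was used instead, with Tulp1 at 529, Rp1 at 278.9 and Abca4 at 246.0 CPM per kilobase. For Rp1 that transcript, 1 of 3 protein-coding ones, had 4170 bases against a deposited length of 12311. Its place in the second order thus rests on the transcript chosen.

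**Figure D3:**
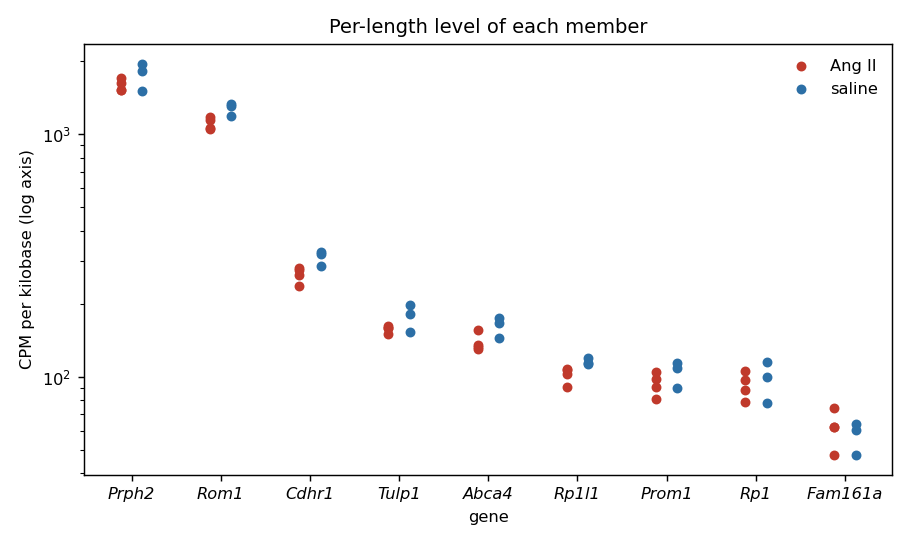
CPM per kilobase of the deposited gene length (log axis) for each member, ordered by mean, with 1 point per Ang II (red) or saline (blue) library. Prph2 (1509 to 1958) and Rom1 (1050 to 1337) do not overlap with any other member, and the points of Rp1l1, Prom1 and Rp1 share a range.

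Relatives of the members by protein family were present at widely different levels. The Prom1 relative Prom2 had at most 12 counts in any library, and the 4 other cadherin-related genes had at most 18 (Cdhr3), too few to be tested. Per length, Abca4 was at 148.6 CPM per kilobase where Abca2, the highest of 4 listed relatives, was at 20.1. Fam161b was at 3.23 CPM per kilobase, and the doublecortin genes Dclk1, Dcdc2a and Dcx were at 6.04, 0.645 and 0.440. The 2 highest listed relatives were Tspan7, a tetraspanin as Prph2 and Rom1 are, at 77.9 CPM per kilobase, and Tub, the founding member of the Tulp1 family, at 63.0. Other Tulp1 relatives were lower, with Tulp4, Tulp3 and Tulp2 at 8.36, 2.48 and 0.215. Of 18 listed relatives 13 were tested, 0 were called in either direction by edgeR, 9 lay lower in Ang II and the median log2 fold change was -0.03. The 3 of smallest p were Tulp2 (-0.92 ± 0.52, SE), Abca2 (-0.14 ± 0.09) and Dclk1 (0.11 ± 0.08).

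Genes that work beside the members were read from 3 further lists. Of 14 symbols of disc partners 12 were in the table and tested, 0 were called in either direction, and 12 lay lower in Ang II with a median log2 fold change of -0.16. Cngb1, a rod channel subunit that binds the Prph2-Rom1 complex, was at 1007, 1032, 1022 and 942.6 CPM with Ang II, against 1208, 1103 and 1140 CPM with saline. The groups did not overlap, and its log2 fold change was -0.20 ± 0.08 (SE, edgeR adjusted p = 0.982). Gucy2e, a guanylate cyclase, was at -0.21 ± 0.10 (SE, edgeR adjusted p = 0.982).

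Of the 16 cilium and axoneme genes 9 lay lower and 7 higher, 0 were called, and the median was -0.0064. Whether this list differs from the disc partners was not tested. Rpgr, a GTPase regulator of the connecting cilium, averaged 28.0 ± 3.16 CPM (SD) over 4 Ang II libraries against 21.7 ± 4.72 CPM (SD) over 3 saline libraries, with a log2 fold change of 0.37 ± 0.15 (SE, edgeR adjusted p = 0.982). Poc5, a centriole protein that sits with Fam161a, was at -0.21 ± 0.10, and Ttc21b, an intraflagellar transport subunit, at -0.25 ± 0.13.

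Among 10 genes of the matrix around the outer segment and of the membrane beside its base, 8 lay lower, 0 were called, and the median was -0.14. Rbp3, the retinoid-binding protein of that matrix, was at 6629, 6502, 5285 and 5587 CPM with Ang II, against 7509, 7254 and 6914 CPM with saline (-0.27 ± 0.10, SE). Crb1, a polarity protein, was at 276.6 to 327.8 CPM with Ang II, against 499.0, 533.7 and 298.2 CPM with saline (-0.52 ± 0.17), with saline replicate 3 inside the Ang II range. Myo7a, a motor protein, had the third smallest p at 0.17 ± 0.11.

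The 15 rod reference genes, none of them a member, all lay lower in Ang II with a median log2 fold change of -0.20, close to that of the members, and 9 had an unadjusted p under 0.05 (0 called). The list shares Cnga1 and 1 other gene with the disc partners, and Rbp3 with the matrix list. Summed over the 9 members, the level was 13380, 13260, 13520 and 12620 CPM in Ang II and 15400, 14260 and 14740 CPM in saline. Set against the rod reference genes, the members' counts came to 16.5%, 17.1%, 20.6% and 18.3% of the reference counts in Ang II and to 17.5%, 17.2% and 17.8% in saline.

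The groups were thus apart in summed CPM, which is scaled by TMM, and overlapped once the members were read against other rod genes. They also overlapped narrowly as a share of all counts, at 1.284% to 1.39% in Ang II and 1.388% to 1.491% in saline. The members' share of the rod reference counts averaged 18.1% ± 1.78 (SD) over 4 Ang II libraries and 17.5% ± 0.287 (SD) over 3 saline libraries. The log2 ratio was 0.05, and -0.02 without Ang II replicate 3, where the reference genes were lowest (65780 CPM). With libraries scaled to the rod reference genes, 2 of 9 members lay below 0 (Cdhr1 at -0.03 and Abca4 at -0.01). That scaling moved the median of all genes to 0.21. Fam161a was at 0.33 on it (unadjusted p = 0.0405, adjusted p = 0.341 with edgeR), which relative to the median of all genes is close to its value under the main scaling.

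**Figure D4:**
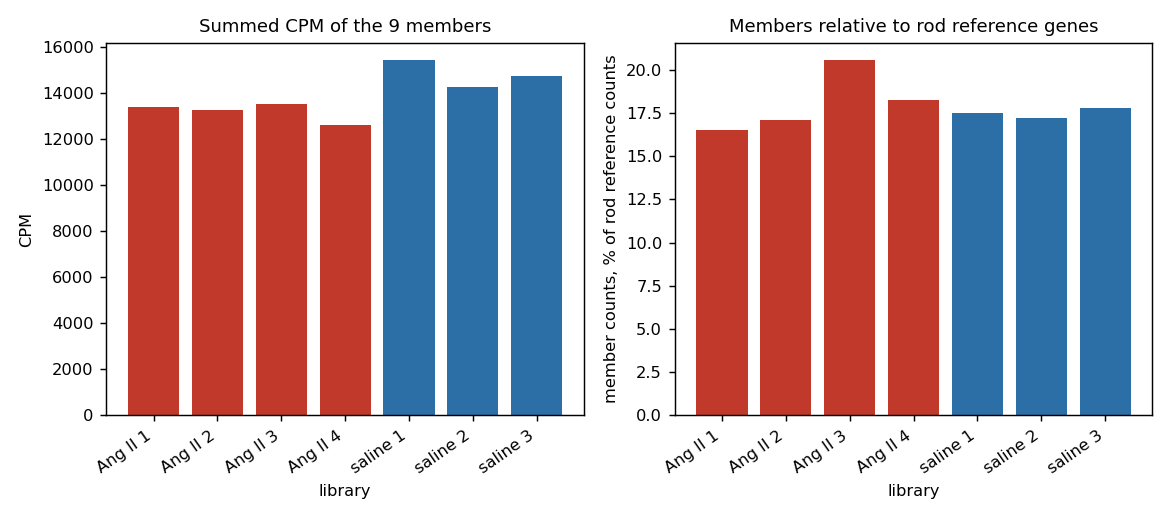
Left, summed CPM of the 9 members by library; right, member counts as a percentage of the counts of 15 rod reference genes, both from 0 (Ang II red, saline blue). Ang II lies at 12620 to 13520 CPM and saline at 14260 to 15400 CPM on the left, while on the right the groups overlap and Ang II replicate 3 is highest at 20.6%.

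**Figure D5:**
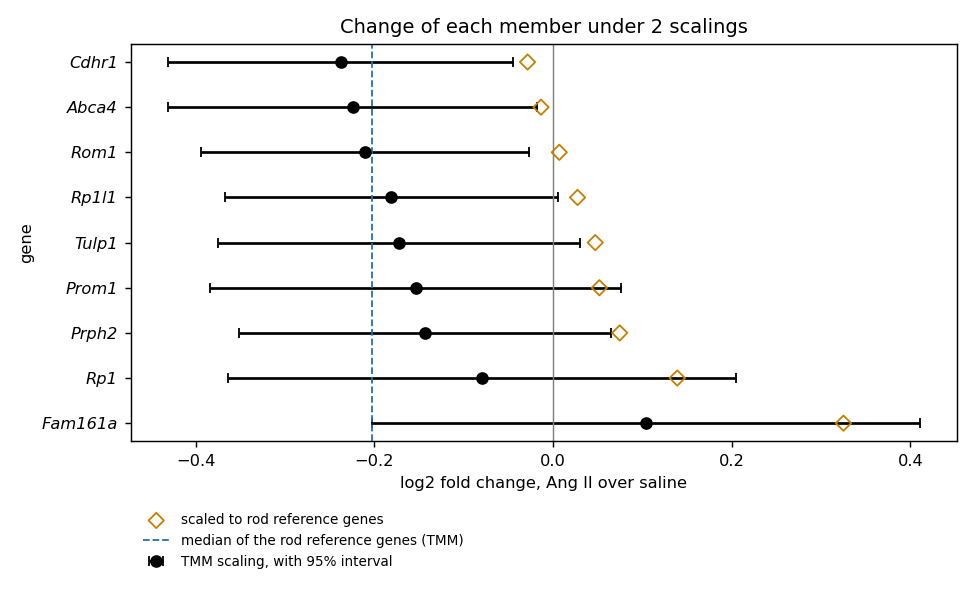
Log2 fold change of each member, Ang II over saline, under TMM scaling (black points with 95% intervals) and with libraries scaled to the rod reference genes (open diamonds); the dashed line marks the median of the rod reference genes under TMM. Under TMM 8 of 9 points lie below 0, and under the rod scaling 2 do.

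Other features of the libraries were set beside the lower estimates of the members, whose median log2 fold change was -0.17 with all 7 libraries. Pigment epithelium markers were higher in each Ang II library than in any saline library, at a sum of 1505 ± 366 CPM (SD, 4 libraries) against 487 ± 469 CPM (SD, 3 libraries). Without saline replicate 3, the saline library with most of that signal, 9 of 9 members lay lower with a median of -0.19, and edgeR called 117 genes (0.667%) but 0 members. Without saline replicate 2 it was 7 of 9 with a median of -0.17. Leaving out saline replicate 1, which had the lowest pigment epithelium sum (200.4 CPM), gave 8 of 9 with a median of -0.12. Immediate early genes also separated the groups, with every Ang II library (212.4 to 261.1 CPM) below every saline library (274.8 to 700.1 CPM), and 9 of 10 lay lower with a median of -0.30. All 9 lens and muscle markers lay higher in Ang II, with a median of 2.64 and 0 called. Their sums overlapped, at 69.1, 2197, 537.3 and 11.3 CPM with Ang II (replicates 1 to 4), against 244.7, 35.9 and 464.3 CPM with saline (replicates 1 to 3). Without Ang II replicate 2, where that sum was highest, 8 of 9 members lay lower with a median of -0.18. Summed cone markers were at 999.2 to 1193 CPM with Ang II, against 1111 to 1324 CPM with saline. The part of these features in the members' values was not tested.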

How the data were processed

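Poly-A selected retinal RNA was sequenced as 7 libraries, without a step that marks the strand, per the labels' protocols. The authors deposited 1 table of raw counts per gene with the gene length in bases. CASAVA, HISAT2 2.0.5, featureCounts 1.5.0-p3 and the build mm10 are named per the submitters' processing notes. The annotation release and the handling of multi-mapping reads are not given in the sources used here. Columns were matched to samples by description, and 0 were left unmatched. Replicates of a group differed by more than sampling noise (9.33 to 20.2 as chi-square over its degrees of freedom).

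All genes were fitted with edgeR 4.0.16 in R 4.3.3 (filterByExpr, TMM, robust quasi-likelihood, group as the sole term, Benjamini-Hochberg adjustment over all genes tested, threshold 0.05). Each SE was derived from the fold change and its F statistic. CPM is scaled by TMM, with 2 as the prior count on the log2 scale. DESeq2 1.42.0, limma 3.58.1, other scalings and filters, the replicate number as a block and leaving out each library were tried as alternatives. Members and lists were chosen with earlier results of these data known. The named genes are the 9 members, the 3 genes of smallest p in each list of partners, relatives and rod genes, the 3 nearest profiles of each member, and others chosen after their values were seen. A few genes that this rule would name are not reported here. In simulated counts for Ang II against saline (16743 genes entering the step), 75% of 100 genes changed by a log2 fold of 1 and 95% of 100 changed by 2 were called, with 15 false calls of 185. Smaller changes, such as those of the members, were not simulated.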

Additional observations from a re-analysis of the deposited data

How the results depend on the processing

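No member was called under any of the 17 alternatives (smallest adjusted p = 0.0622, Rom1 with limma-voom). Between 7 and 9 members lay below 0 in each except the rod scaling, where 2 did. The members' median log2 fold change, -0.17 ranged from -0.20 to -0.12, apart from 0.0472 with libraries scaled to the rod reference genes. Leaving out each library in turn gave medians of -0.19 to -0.12.

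Over all genes, 0 calls became 35 with DESeq2, 142 with limma-voom, 98 with no low count filter, 56 with the replicate block and 18 with the rod scaling, and 0 to 117 when each library was left out, the 117 without saline replicate 3. The causes were not tested. The replicate numbers are not said to pair the libraries. Deviations of same-numbered libraries from their group means correlated at -0.07, -0.02 and 0.05. So few values cannot settle whether the numbers pair libraries. The block changed no call among the members.

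Signs turned for Rp1 (0.0568 without saline replicate 2, 0.0046 with the replicate block; -0.212 to 0.0568 over the libraries left out), for Fam161a (-0.0056 without saline replicate 3; up to 0.212 without Ang II replicate 4) and, with the rod scaling, for Prph2 (0.0746), Rom1 (0.0070), Prom1 (0.0518), Rp1 (0.139), Rp1l1 (0.0274) and Tulp1 (0.0472). The summed members relative to rod genes gave a log2 ratio of 0.05, between -0.02 and 0.09 with each library left out, and -0.17 in CPM. For this ratio, leaving out each library was added after seeing the data, as was the transcript length, which set per-length levels at 1880 (Prph2), 192.2 (Prom1), 246.0 (Abca4), 278.9 (Rp1), 122.1 (Rp1l1), 134.8 (Fam161a) and 529.0 (Tulp1) CPM per kilobase. Every member had at least 3430 counts per library, so the number of libraries, not counting error, limits its precision.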

Other observations

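Genes whose centred log2 CPM profile lay closest to each member were read among 10007 genes with a mean of at least 10 CPM, over the 7 libraries, leaving out predicted gene models. They are a description of these libraries, where many profiles lie close by. For Prph2 they were Ndufa6, Tchp and Urm1 (root mean square difference 0.0425 to 0.0441), and for Rom1 Zfp707, Ccdc107 and Arf5 (0.0359 to 0.0447). For Tulp1 they were Atp5j2, N4bp3 and H2afj (0.0372 to 0.0452). Prom1 was closest to Ahi1, a gene of the ciliary transition zone, to Lrit3 and to Dync1li1 (0.0395 to 0.0446). Abca4 was closest to Tctn2, another transition zone gene, to Pde6b, a catalytic subunit of the rod phosphodiesterase, and to Zfp791 (0.0413 to 0.0546). Cdhr1 was closest to Skiv2l2, Gpr152 and Nicn1 (0.0340 to 0.0412), and Rp1l1 to Ogdh and Dync1h1 (0.0211 and 0.0336). Rp1 had Phykpl and Zfp597 (0.0484 and 0.0487), and Fam161a Chtf18, Tatdn1 and Ccdc191 (0.0415 to 0.0581). Other members came after these: the best-placed one was 11th for Abca4 (Cdhr1) and 450th for Rp1 (Fam161a).

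The summed level of the 16 cilium and axoneme genes put the 7 libraries in the order in which Rp1 did, a match noticed after the values were seen. From the highest the order was saline replicate 2, Ang II replicate 3, saline replicate 1, Ang II replicates 2, 1 and 4, and saline replicate 3. The sum ran from 1761 CPM in saline replicate 2 to 1225 CPM in saline replicate 3, where Rp1 ran from 1419 to 957.2 CPM. Rpgrip1, a scaffold of the connecting cilium, made up much of the sum (818.1 CPM in saline replicate 2 and 454.7 CPM in saline replicate 3). Without it the ends of the order stayed in place, at 942.4 and 770.6 CPM, and Ang II replicate 3 moved from the second to the fifth place (854.5 CPM).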
